A study of Drosophila melanogaster with 4 samples.

Results

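Glutathione transferases (GSTs), cytochrome P450s and UDP-glycosyltransferases (UGTs) were compared between Drosophila melanogaster embryos that lack dsap18 and embryos in which a transgene restores it. The members were all spots of a two-colour array whose current gene symbol starts with Gst or Ugt, or is Cyp followed by digits, a letter and digits, with a value on at least 1 array of each biological replicate. By this rule 59 genes on 60 spots were members, namely 25 GSTs, 20 P450s and 14 UGTs, out of 5752 genes with such a value and out of 143 genes on the array whose symbol has one of these forms.

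The mutant embryos carried the null allele dsap18 117, made by P-element mobilisation, over the deficiency Df(3R)sbd 45, in a w1118 background. The control embryos had the same null allele and deficiency and also a dsap18-HA transgene, so both groups had 1 copy of whatever else the deficiency removes. All were whole embryos aged 0 to 24 h from flies kept at 25 °C, so every RNA sample pooled many stages and all tissues. The labels do not say what drives the transgene. They place it on X for 3 arrays and on chromosome 2 for 1 array, which holds the same control RNA as an array labelled X. Of 4 arrays, 2 belong to each biological replicate and carry 1 amplified RNA per group with the dyes exchanged, so n is 2 throughout. The comparison asks which transcripts differ in amount when dSAP18 is missing, a protein that binds the Sin3 corepressor and is also part of an RNA-binding complex linked to splicing.

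The 3 families act in sequence on foreign and internal small molecules. P450s oxidise them with electrons from a reductase, while GSTs attach glutathione and UGTs attach a sugar, which makes the products easier to excrete. In insects the fat body, the gut and the Malpighian tubules are known sites of this activity. Several P450s and at least 1 GST serve hormone synthesis, cuticle formation or pigment synthesis instead.

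Every value below is a log ratio of the 2 channels of an array, taken as log2, and it is a difference and not a level. The deposited table does not say which channel is on top. Mutant over control is the likely direction, since the series text calls the mutant the sample and the control the reference, and a negative ratio then means less transcript in the mutant. If it is control over mutant, every sign turns and all sizes, counts and groupings stay. Swapped arrays correlated positively across 4318 genes (Pearson r = 0.836 in replicate 1 and 0.923 in replicate 2), while arrays of different replicates correlated at 0.742 and 0.737 where the mutant had the same dye and at 0.674 and 0.686 where it had the other. The ratios were therefore taken as already turned one way. In whole embryos, fewer cells of a type and less RNA per cell cannot be told apart. Probe sequences were not used here, so close relatives within these families may share signal at a spot.

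Over all 5752 genes 1327 (23.1%) passed limma's test at an adjusted p under 0.05, of which 678 (11.8% of all genes) had negative and 649 (11.3%) had positive ratios. Among the 59 members 18 passed, 10 below 0 and 8 above it. That is 30.5% of the members, 16.9% negative and 13.6% positive. The median size of the ratio was 0.24 over members and 0.23 over all genes, so the families as a whole did not stand far from the background. Their median ratio was -0.11, against 0.02 over all genes. All 18 had the same sign on every array measured, as did 1307 of the 1327 calls over all genes. Their fold changes ran from 1.33 to 1.95, so none reached 2-fold. Over all 5752 genes, 43 with 1 sign throughout were beyond 2-fold. Of the 41 members that did not pass, 26 also kept 1 sign on every array. In total 44 of 59 members kept 1 sign, beside 3659 of 5752 genes.

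By family, 3 of 25 GSTs passed below 0 (12%, beside 11.8% of all genes) and 5 above it (20%, beside 11.3%), with a median ratio of 0.05. That median was 0.00 in replicate 1 and 0.10 in replicate 2. Of 20 P450s 4 were negative (20%) and 2 positive (10%) calls, with a median of -0.14. Of 14 UGTs 3 were negative (21.4%) and 1 positive (7.14%), with a median of -0.21. With the arrays scaled to the same spread the splits were 3 and 1 for GSTs, 3 and 2 for P450s, and 1 and 1 for UGTs, and the median over the 20 GSTs with values on all 4 arrays was -0.05. The differences between the families were not tested.

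The families also differed in how many of their genes gave values at all. GSTs were measured in both replicates for 25 of 35 genes on the array (71.4%), P450s for 20 of 73 (27.4%) and UGTs for 14 of 35 (40.0%), against 47.7% of all 12057 genes. Epsilon GSTs were measured for 12 of 14 genes, while Delta GSTs gave 4 of 11 and clan 4 P450s 3 of 26. The rule by which the authors left spots empty is not given in the sources used here, so an empty spot is not a measured absence. Cyp18a1, which encodes an enzyme that inactivates ecdysone, was among the 63 genes without a value on any array. A further 21 genes had values in 1 replicate, between -1.58 and 0.73 on single arrays, and are not members.

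GSTs are grouped in classes by sequence. Delta and Epsilon are the insect classes that have expanded in tandem gene clusters, and the Omega, Sigma, Theta and Zeta classes are shared with vertebrates. In the results that follow, array values are given with the array that has the mutant in Cy3 first and the one with the mutant in Cy5 second.

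GstE6 (NCBI gene 37111), of the Epsilon class, had the lowest ratio of all 59 members. It was at -0.65 and -0.72 in replicate 1 and at -1.18 and -1.32 in replicate 2. All 4 arrays were below 0, and those of replicate 2 were lower than those of replicate 1. The mean was -0.97 ± 0.40 (SD, n = 2), a 1.95-fold difference (limma adjusted p = 5.36e-06). GstE13 (35928) was the other Epsilon gene to pass and went the opposite way, at 0.24 and 0.34 in replicate 1 and 0.59 and 0.56 in replicate 2 (mean 0.43 ± 0.20, limma adjusted p = 0.037).

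The remaining 10 Epsilon genes did not pass and lay between -0.29 (GstE11, at -0.35, -0.24, -0.53 and -0.05) and 0.22 (GstE14). GstE14, known as noppera-bo for its part in ecdysteroid synthesis, was at 0.29 and 0.28 in replicate 1 and at 0.16 on the 1 array of replicate 2, all above 0, and its 95% limma interval ran from -0.09 to 0.54. Over the 12 Epsilon genes the median was -0.09, with -0.15 from replicate 1 and -0.04 from replicate 2.

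None of the 4 measured Delta genes passed limma's test, with 0 at an unadjusted p under 0.05 and 2 without moderation of the variance. GstD1, whose product can break down DDT and whose promoter is a common reporter of oxidative stress, was at -0.12, -0.21, -0.11 and -0.08. These values kept 1 sign but were small, with a mean of -0.13 and a 95% interval from -0.45 to 0.18. GstD3 had the lowest mean of the class (-0.20) and was at -0.20 on 1 array of replicate 1 and at -0.25 and -0.16 in replicate 2. GstD9 had the highest (0.27) and was at 0.30, 0.27, 0.25 and 0.25.

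All 3 Omega genes passed, and they split. GstO1 (38975) was at 0.50 and 0.42 in replicate 1 and at 1.18 and 1.04 in replicate 2, the highest mean of all members at 0.79 ± 0.46 (1.73-fold, limma adjusted p = 0.000208). GstO2 (38974) was at 0.15 and 0.10 in replicate 1 and at 0.88 and 0.67 in replicate 2, a mean of 0.45 ± 0.46 (limma adjusted p = 0.0349). The GstO2 value was mostly that of replicate 2, as it was 0.12 without replicate 2 and 0.77 without replicate 1. Both of its spots showed this, with 0.13, 0.12, 0.87 and 0.81 on one and 0.16, 0.07, 0.88 and 0.53 on the other.

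GstO3 (38972) was negative on all arrays, at -0.50 and -0.43 in replicate 1 and at -0.47 and -0.36 in replicate 2. Its replicates were nearly equal, while those of GstO1 differed by a factor of 2.42. The mean of GstO3 was -0.44 ± 0.03 (limma adjusted p = 0.0339). Its call was lost with the arrays of either dye alone (limma adjusted p = 0.0536 with the mutant in Cy3 and 0.0565 with it in Cy5). Omega enzymes are known for reducing dehydroascorbate and for pteridine pigment synthesis, the latter by sepia (se), whose gene lies between GstO3 and GstO2 and was not measured in both replicates.

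Theta genes split as well. GstT1 (35995) was at 0.24 and 0.10 in replicate 1 and at 1.15 and 0.93 in replicate 2 (mean 0.61 ± 0.62, limma adjusted p = 0.00447). It was 0.17 without replicate 2 and 1.04 without replicate 1. GstT4 (32299) was at -0.53 and -0.39 in replicate 1 and at -0.79 and -0.61 in replicate 2 (mean -0.58 ± 0.17, limma adjusted p = 0.00474). GstT1 thus rested mainly on 1 replicate, and GstT4 was below 0 to a similar degree in both. GstT2 (0.12) and GstT3 (0.24, from 1 array per replicate, both with the mutant in Cy3) did not pass.

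GstZ1 (41132) belongs to the Zeta class, which in mammals acts in tyrosine breakdown. It was at 0.28 and 0.26 in replicate 1 and at 1.07 and 0.95 in replicate 2, with a mean of 0.64 ± 0.52 (limma adjusted p = 0.00247). Its value was 0.27 without replicate 2 and 1.01 without replicate 1. GstS1, the sole Sigma gene, was just outside the threshold at 0.41 ± 0.41 (limma adjusted p = 0.0527), with 0.05 and 0.19 in replicate 1 and 0.70 on the 1 array of replicate 2. The calls of GstE13, GstO2, GstT1 and GstZ1 were lost when arrays were scaled to the same spread, that of GstE13 also with the arrays that have the mutant in Cy3, and that of GstO2 also with the other arrays. GstO1 was 0.46 without replicate 2.

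**Figure D1:**
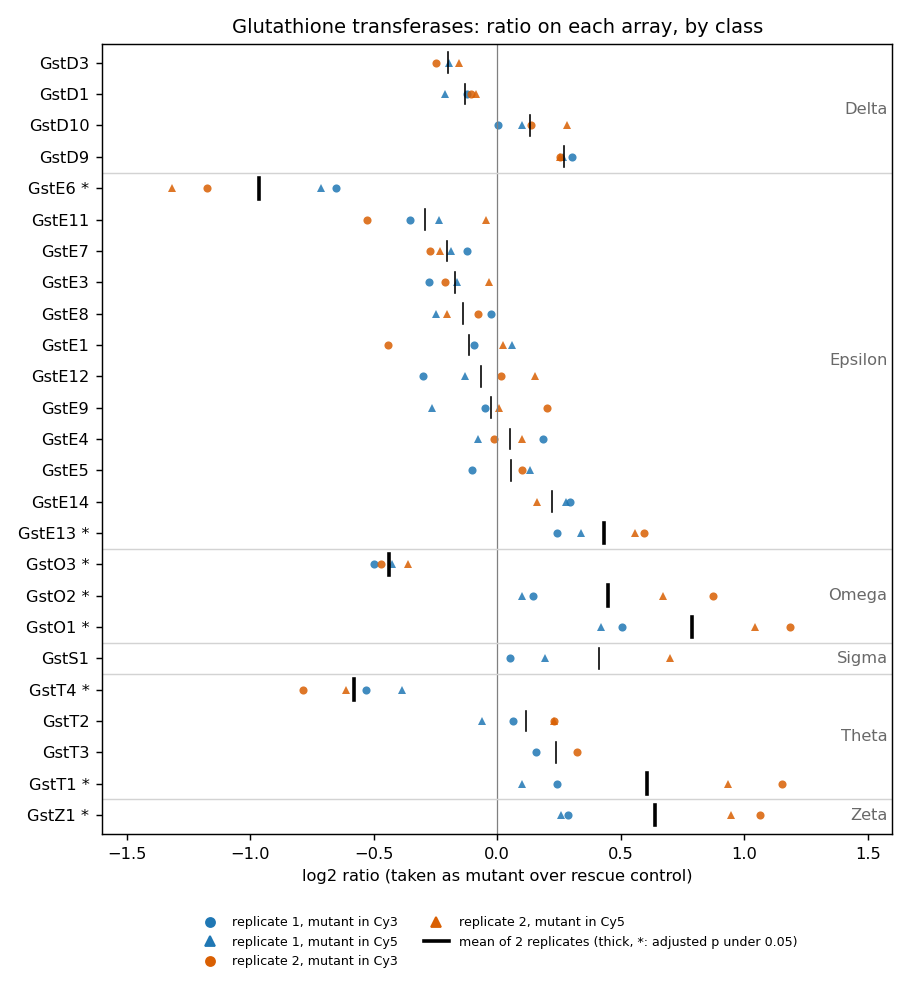
Log2 ratio (horizontal axis, taken as mutant over rescue control) of the 25 measured GST genes (rows, grouped by class), with 1 point per array, coloured by replicate and shaped by dye, and a vertical bar at the mean of 2 replicates. GstE6 lies farthest left at -0.97 and GstO1 farthest right at 0.79. The orange points of GstO1, GstO2, GstS1, GstT1 and GstZ1 lie far to the right of the blue ones.

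P450s are grouped in clans. The mitochondrial clan and clan 2 hold the enzymes of ecdysone synthesis among others, clan 3 holds many enzymes that act on plant toxins and insecticides, and clan 4 acts largely on fatty acids and related lipids. The symbol rule does not take in P450 genes with other names, such as the ecdysone synthesis genes phm, dib, sad and shd, so they are not among the members.

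Outside clan 3, in clans 2 and 4 and the mitochondrial clan, all 6 measured P450s had a negative mean, and 3 of them passed. They were 1 of 4 clan 2, 3 of 26 clan 4 and 2 of 7 mitochondrial genes on the array. Genes of these clans with values in 1 replicate only lay on both sides of 0, such as Cyp4p2 (-1.58 and -0.70) and Cyp4d14 (0.73 on 1 array). Over all genes 2791 of 5752 had a negative mean and 11.8% were negative calls. Cyp304a1 (41586), the only clan 2 gene measured, was at -0.54 and -0.58 in replicate 1 and at -1.46 and -1.16 in replicate 2. The ratio was about as low as that of GstE6, with a mean of -0.94 ± 0.53 (1.91-fold, limma adjusted p = 1.36e-05) and -0.56 without replicate 2. Cyp301a1 (36378), a mitochondrial P450 needed to form the adult cuticle, was at -0.57 and -0.58 in replicate 1 and at -1.03 and -0.86 in replicate 2 (mean -0.76 ± 0.27, 1.69-fold, limma adjusted p = 0.00028). All arrays of both genes were below -0.5.

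Cyp4g1 (30986) makes the hydrocarbons that waterproof the cuticle, in cells called oenocytes. It was measured on 3 arrays, at -0.20 and -0.47 in replicate 1 and at -0.66 on the array of replicate 2 with the mutant in Cy3 (mean -0.50 ± 0.23, limma adjusted p = 0.0158). The call was lost with the Cy3 arrays alone (limma adjusted p = 0.0909) and with scaled arrays (0.0716). The other members outside clan 3 did not pass. They were Cyp4c3 at -0.23, the lufenuron resistance gene Cyp12a4 at -0.19 (3 arrays) and Cyp4e2 at -0.07, whose arrays lay on both sides of 0 (-0.04, -0.12, 0.05 and -0.19).

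Clan 3 had values on both sides, with a median of -0.04 over 14 genes that was -0.06 in replicate 1 and 0.06 in replicate 2. Cyp6d5 (41706) was the single negative call, at -0.46 and -0.27 in replicate 1 and at -0.96 and -0.86 in replicate 2 (mean -0.64 ± 0.38, limma adjusted p = 0.0022), and it was -0.37 without replicate 2. Cyp6v1 (33056) was the highest P450, at 0.57 and 0.48 in replicate 1 and at 0.67 and 0.68 in replicate 2 (mean 0.60 ± 0.11, limma adjusted p = 0.00337). It stood out for close replicates, with a ratio of replicate 2 to replicate 1 of 1.30.

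Cyp6a22 (49847) was at 0.31 and 0.33 in replicate 1 and at 0.58 and 0.70 in replicate 2 (mean 0.48 ± 0.23, limma adjusted p = 0.0197). Cyp28d1 went against the usual order of the replicates, at 0.52 and 0.58 in replicate 1 but 0.13 and 0.27 in replicate 2, and its mean of 0.38 ± 0.24 did not pass (limma adjusted p = 0.076). With arrays scaled to the same spread Cyp28d1 passed (limma adjusted p = 0.0331), while Cyp6a22 no longer did, nor did it with the arrays that have the mutant in Cy3. The other 10 clan 3 genes lay between -0.35 (Cyp6a23, 3 arrays) and 0.13 (Cyp28a5), and none of them passed.

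UGTs are named by a family number, a letter and a gene number, and each of the measured families had 1 to 3 measured genes. Their enzymes sit in the endoplasmic reticulum, and for most of them the natural substrate is not established. Ugt317A1 (37590) had the lowest mean, at -0.45 and -0.43 in replicate 1 and at -0.67 and -0.57 in replicate 2 (mean -0.53 ± 0.13, limma adjusted p = 0.00994). Ugt49B1 (37420) was at -0.33 and -0.42 in replicate 1 and at -0.47 and -0.58 in replicate 2 (mean -0.45 ± 0.11, limma adjusted p = 0.0298). In both genes the replicates lay close together.

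Ugt37C1 (53583) was at the threshold, with -0.14 and -0.19 in replicate 1 and -0.77 and -0.56 in replicate 2 (mean -0.41 ± 0.35, limma adjusted p = 0.0498). It was -0.16 without replicate 2 and -0.67 without replicate 1. Ugt301D1 was just outside it, at -0.30 and -0.22 in replicate 1 and -0.54 on the 1 array of replicate 2 (mean -0.40, limma adjusted p = 0.0576). The calls of Ugt37C1 and Ugt49B1 were lost when arrays were scaled to the same spread and with the arrays that have the mutant in Cy3, and that of Ugt37C1 also with the other arrays.

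Ugt36E1 (35139), which has been studied in olfactory neurons, was the sole UGT to pass with a positive ratio. It was at 0.38 and 0.43 in replicate 1 and at 0.75 and 0.74 in replicate 2 (mean 0.58 ± 0.24, limma adjusted p = 0.00508). All 4 arrays were above 0. The UGTs that did not pass ranged from -0.40 to 0.33, where the upper end was Ugt307A1, measured only on the arrays with the mutant in Cy3 (0.33 and 0.34). Ugt316A1, also above 0 throughout, was at 0.29, 0.32, 0.20 and 0.10. Ugt37D1, at -0.28 on 1 array of replicate 1 and 0.09 and 0.13 in replicate 2, changed sign between replicates, and so did Ugt50B3, at 0.29 on 1 array of replicate 1 and -0.17 and -0.26 in replicate 2.

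**Figure D2:**
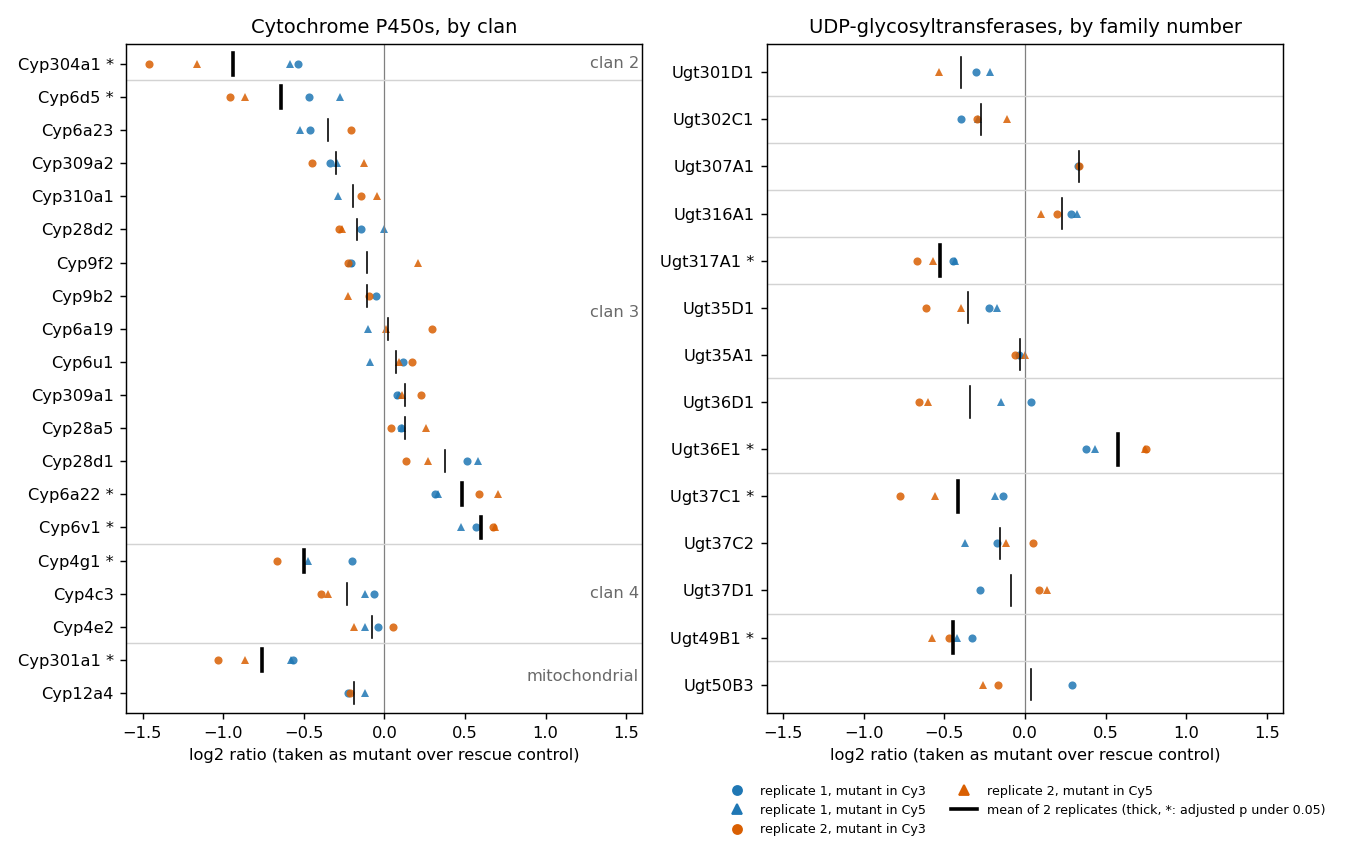
Log2 ratio (horizontal axes, taken as mutant over rescue control) of the 20 measured P450 genes (left, grouped by clan) and the 14 UGT genes (right, grouped by family number), with 1 point per array and a vertical bar at the mean of 2 replicates. The 6 measured P450s outside clan 3, a small part of these clans on the array, have means left of 0. Cyp304a1 is at -0.94 and Cyp301a1 at -0.76. Ugt36E1 at 0.58 lies alone on the right among the UGTs that passed.

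Replicate 2 had wider ratios than replicate 1 over all genes, with an SD over genes of 0.48 against 0.28, which is 1.75 times as wide. Of the 18 members that passed, 17 had the larger ratio in replicate 2, and GstO3 was the exception. The ratio of replicate 2 to replicate 1 had a median of 1.98 over the 18. It was highest in GstO2 (6.32), GstT1 (6.10), Ugt37C1 (4.06) and GstZ1 (3.70), so the 4 members with the most unequal replicates included 3 of the 5 GSTs with positive calls. Both replicates had the same sign for 54 of 59 members (91.5%), against 78.4% of all genes.

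**Figure D3:**
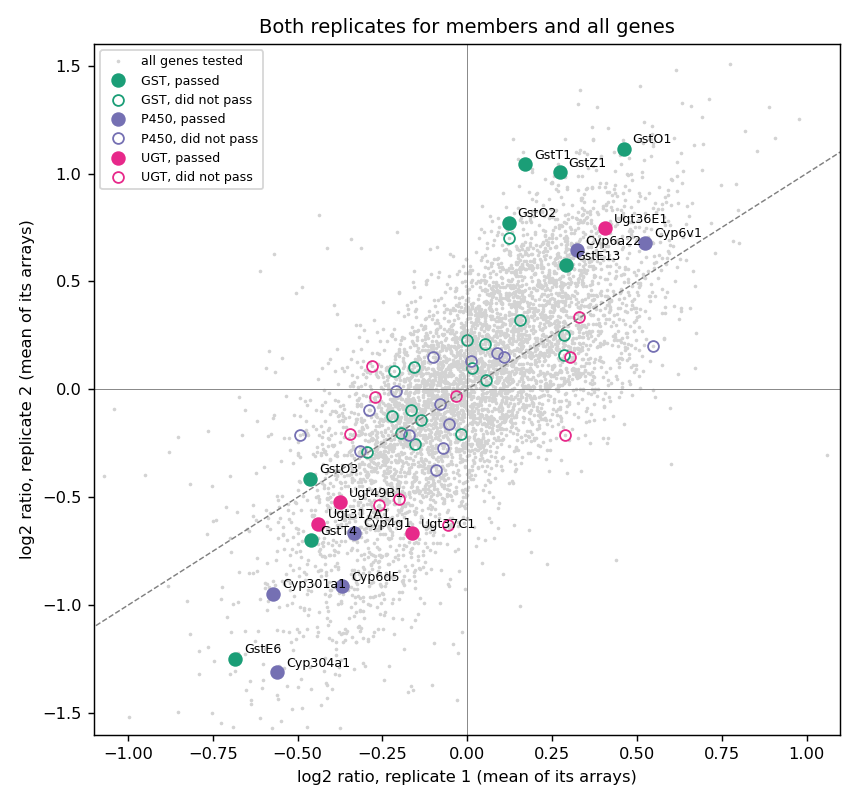
Log2 ratio in replicate 1 (horizontal axis) against replicate 2 (vertical axis, wider range) for all genes tested (grey, a few lie outside the axes) and for members by family, filled where the gene passed at an adjusted p under 0.05. The dashed line marks equal ratios. GstO3 is the only filled point on the side of the dashed line nearer to 0 in replicate 2. Among the filled points GstT1, GstZ1, GstO1 and GstO2 stand high above the line.

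Many members sit beside each other in the genome, as tandem copies. By the order of genes in RefSeq Release 6, 13 pairs of members had no annotated gene between them. Of these pairs 7 had the same sign and 6 had opposite signs, and in 1 pair, GstO2 and GstO1, both genes passed. GstE6 lies on arm 2R between GstE5 and GstE7. GstE5 was at -0.10, 0.13 and 0.10 on 3 arrays and GstE7 at -0.12, -0.19, -0.27 and -0.23, and neither passed. GstE6 was lower than GstE5 by 0.70 in replicate 1 and 1.35 in replicate 2, and lower than GstE7 by 0.53 and 0.99. Of the 8 measured genes of that run, from GstE1 to GstE9, it was the only one to pass.

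In the Omega run on arm 3L, GstO3 (-0.44) and GstO2 (0.45) lie on either side of se and had opposite signs on every array. GstO1, the next gene, was above GstO2 by 0.34 in each replicate. On arm 2L the pair Ugt36D1 and Ugt36E1 differed by 0.46 in replicate 1 and 1.38 in replicate 2. Ugt36D1 was at 0.04 and -0.15 in replicate 1 and -0.66 and -0.60 in replicate 2 and did not pass (limma adjusted p = 0.113), so its values depended on the replicate.

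The pairs Cyp28d2 and Cyp28d1, and Cyp309a1 and Cyp309a2, had means of opposite sign with differences of similar size in both replicates. Cyp28d1 was above Cyp28d2 by 0.62 in replicate 1 and 0.47 in replicate 2. Cyp309a1 was above Cyp309a2 by 0.40 and 0.45. None of these 4 genes passed on its own, and the differences between neighbours were not tested.

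**Figure D4:**
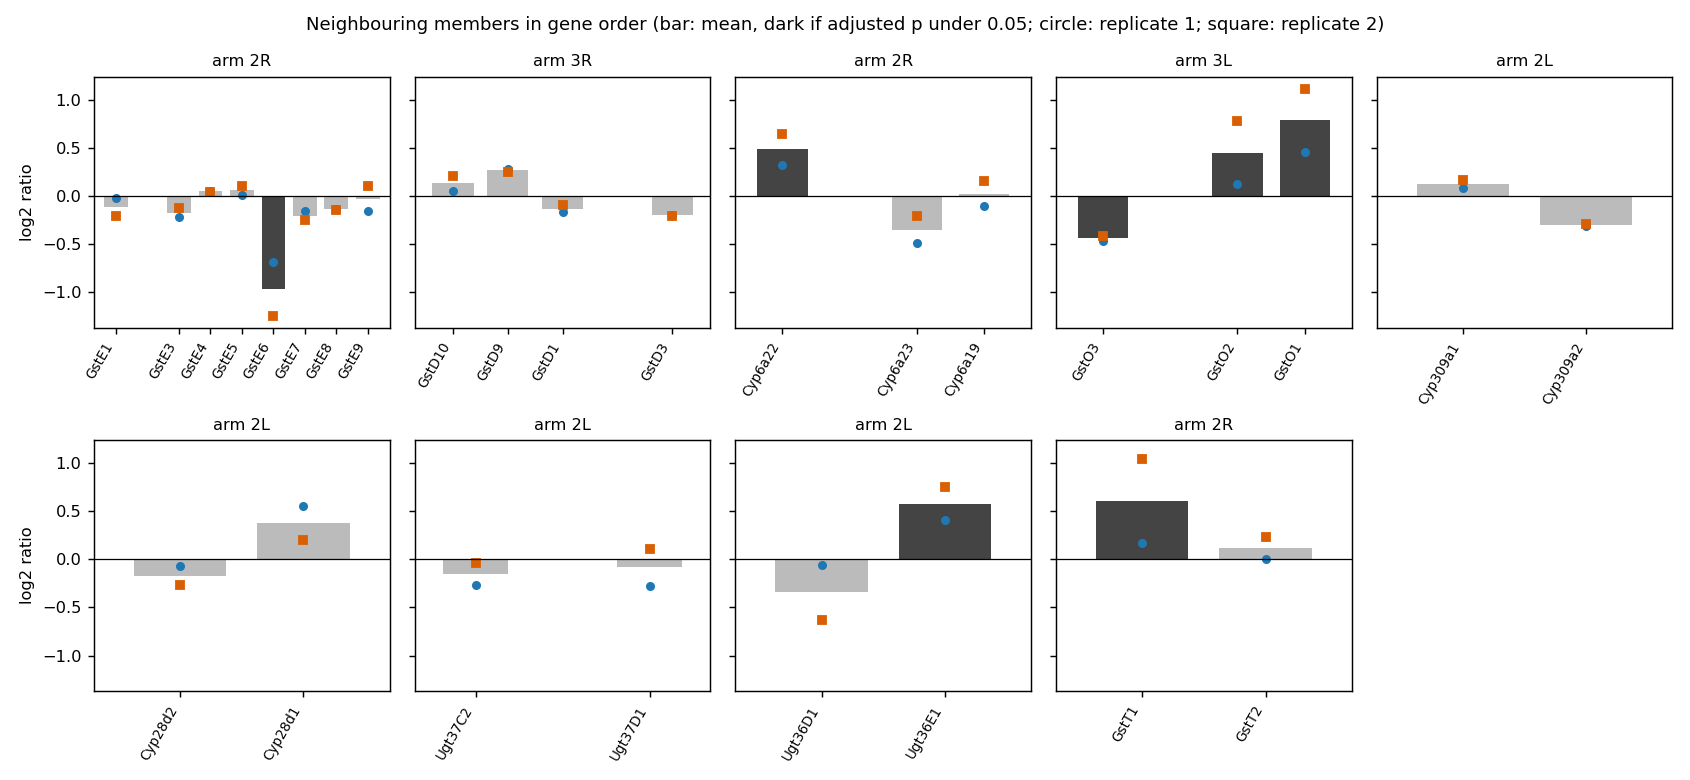
Log2 ratio (vertical axis) of members that lie near each other in gene order (horizontal axis, 1 panel per run, with gaps where a gene was not measured). Bars give the mean of 2 replicates, dark where the adjusted p is under 0.05, circles replicate 1 and squares replicate 2. GstE6 at -0.97 stands alone in its run of 8 measured genes, and GstO3 points down while GstO2 and GstO1 point up.

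Genes that work with these families were taken from lists of partners and parallel enzymes. Over all genes 23.1% passed in either direction. The share was 25% of the electron donors, 28.6% of the glutathione list and 33.3% of the UDP-sugar supply genes, all short lists. The glutathione list held supply genes and the microsomal transferase gene Mgstl. Of 4 measured P450 electron donors Cyt-b5 passed at -0.43 ± 0.07 (limma adjusted p = 0.0388), and the median was -0.11. Among the 7 genes of the glutathione list Gclc passed at -0.43 with an SD of 0.00148 (n = 2, limma adjusted p = 0.0372). It encodes the catalytic subunit of the rate-limiting enzyme of glutathione synthesis. Gss1, a glutathione synthetase gene, passed at 0.49 ± 0.03 (limma adjusted p = 0.0165). Both differed little between replicates and went opposite ways. The other glutathione synthetase gene of the list, Gss2, was below 0 on all arrays. Its mean of -0.32 did not pass (limma adjusted p = 0.134). The median of the list was 0.12, with -0.01 from replicate 1 and 0.26 from replicate 2. Of 3 genes of UDP-sugar supply mmy, which makes UDP-N-acetylglucosamine, passed at -0.64 ± 0.41 (limma adjusted p = 0.00224, -0.35 without replicate 2). The gene sgl, which makes the UDP-glucuronate used for sugar chains, was at -0.28 and did not pass. UGP did not pass either and changed sign, at -0.17 in replicate 1 and 0.37 in replicate 2, from 1 array each.

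Among 8 epoxide hydrolase, esterase and sulfotransferase genes the sulfotransferase gene St3 was the single call (12.5%, beside 23.1% of all genes). It was at -1.05 ± 0.58 (limma adjusted p = 1.82e-06), below every member, with -0.64 without replicate 2. None of 7 genes listed as multidrug transporters passed limma's test (1 at an unadjusted p under 0.05, and 0 at that level without moderation), with a median of -0.20. The list took in sni, a carbonyl reductase gene and not a transporter, at 0.07 in replicate 1 and 0.52 in replicate 2. The medians of this list, 0.06 and -0.10 in the replicates, are therefore not those of transporters alone. None of 6 measured regulators of detoxification passed either (0 at an unadjusted p under 0.05 by either test). Keap1, the inhibitor of the stress factor CncC, was at -0.19 ± 0.16, the CncC partner maf-S at -0.09 and the Ah receptor partner tgo at 0.05.

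Of 11 antioxidant and metallothionein genes 3 passed with a positive ratio, led by the extracellular superoxide dismutase gene Sod3 (0.64 ± 0.49, limma adjusted p = 0.00248). It was 0.29 without replicate 2 and 0.99 without replicate 1. The peroxidase gene Gtpx passed at 0.43 ± 0.50 and the metallothionein gene MtnD at 0.42 ± 0.30, and both were low in replicate 1, at 0.07 and 0.21, against 0.78 and 0.64 in replicate 2. The female germline thioredoxin gene dhd passed at -0.90 ± 0.11 (limma adjusted p = 1.42e-05), with all arrays below -0.8. This list had a median of 0.12, with 0.03 from replicate 1 and 0.22 from replicate 2. Its positive calls were 27.3% of the list and the negative call 9.09%, beside 11.3% and 11.8% of all genes.

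Several lists of stage and tissue markers held more calls than the 11.8% negative and 11.3% positive of all genes, while the blastoderm and Malpighian tubule lists did not. Their part in the ratios of the members was not tested. Late epidermis and cuticle genes had negative ratios in 17 of 17, with 15 passing and a median of -0.63 (range -0.90 to -0.02), led by the cuticle protein genes TwdlF and TwdlW. In replicate 1 alone that median was -0.37, and in replicate 2 it was -0.81. The listed maternal and early genes were positive in 11 of 11, with 5 passing, all positive, and a median of 0.37 (range 0.04 to 0.89), led by plu at 0.89 and twe at 0.74. The maternal gene dhd, counted above among antioxidants, was at -0.90. Midgut genes had 11 negative calls of 15 (median -0.53, range -0.98 to 0.19), and fat body genes 3 of 6 (median -0.48, range -1.13 to 0.40). Hemocyte genes had 4 of 7 (median -0.69, range -0.97 to -0.11), with -0.26 as the median of replicate 1 and -1.11 as that of replicate 2. All 5 tracheal genes were negative calls, and 3 of them, Gasp, serp and verm, are also in the cuticle list. Malpighian tubule genes had 1 call of 10 (Ncc69, -0.69, and -0.33 without replicate 2) and a median of -0.15. Besides Cyp4g1, Desat1 was the only listed oenocyte gene measured, at -0.13. The blastoderm genes had 0 calls of 8, with 1 at an unadjusted p under 0.05 by limma and 0 without moderation, and a median of 0.01, with -0.04 and 0.04 from the replicates.

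**Figure D5:**
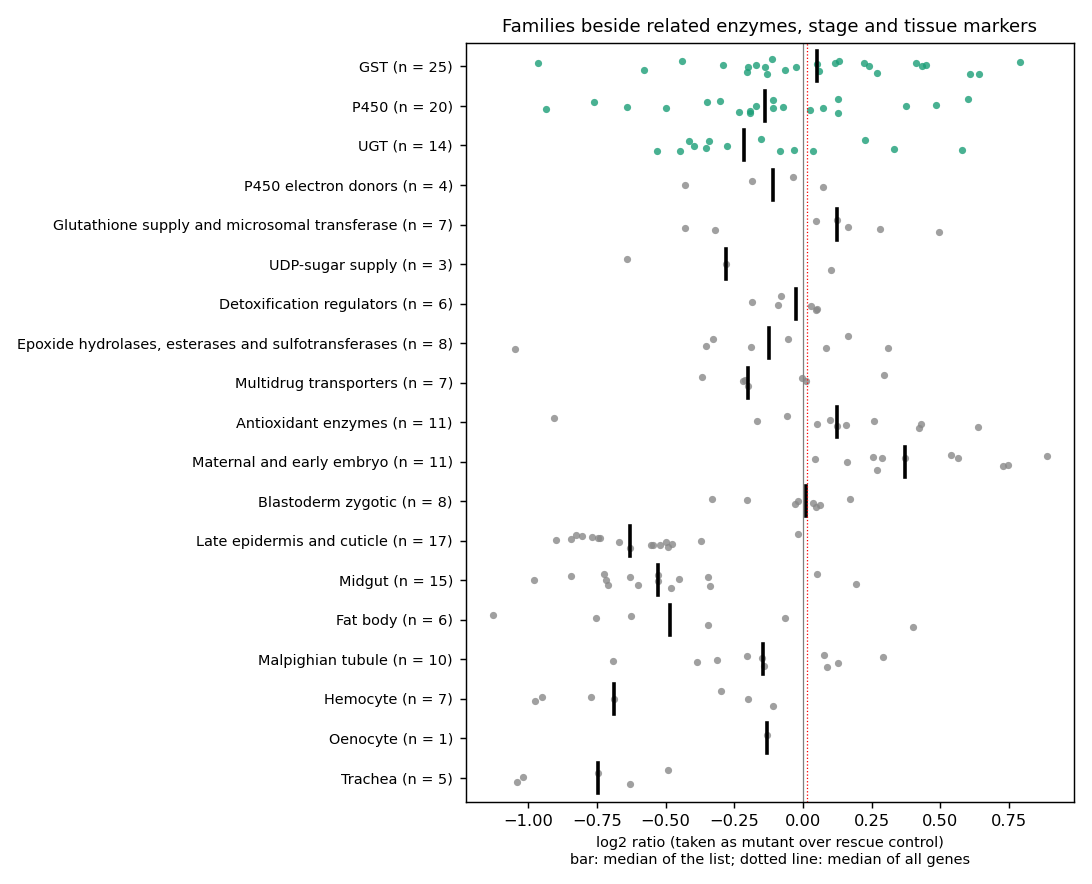
Log2 ratio (horizontal axis, taken as mutant over rescue control) of each measured gene of the 3 families (green) and of lists of related enzymes, stage markers and tissue markers (grey), with the median of each list as a bar and the median of all genes as a dotted line. The 3 families have medians of 0.05, -0.14 and -0.21 and spread to both sides, while cuticle genes lie on the left and maternal genes on the right.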

How the data were processed

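The deposited values, read here as log2, are log ratios of the 2 channels of each array, made by the authors with limma, per the submitters' processing notes. For the log base, background correction, normalization, direction and empty spots, the steps were not given in the sources used here. Array medians lay between 0.00 and 0.01, and spots with a value numbered 7976 and 7642 in replicate 1 and 6893 and 6537 in replicate 2. The small number of arrays limits precision. dsap18 has no named spot with values here, so it could not check the labels.

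Of 16416 spots 13163 have 1 gene symbol in the platform annotation, 101 several and 3152 none. Symbols were updated through the RefSeq table for 12532 spots by gene ID and 120 by accession, and 511 kept the old one. The swapped arrays of each spot and then the spots of a gene were averaged. A replicate rested on 1 array in 15 of 59 members, as 44 had all 4. The test was that of limma (version 3.58.1, R version 4.3.3), with lmFit and eBayes on the 2 replicate means against 0, two-sided, with Benjamini-Hochberg adjustment over 5752 genes and calls at an adjusted p under 0.05. The replicates came from different extractions. limma drew the variance largely from all genes together (prior SD 0.22 with 81.6 degrees of freedom). A gene's own spread between replicates therefore had little weight in its p-value and interval. The script was tested on simulated data.

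Members, lists and tests were chosen with earlier results of these data known. Named with all array values were members past the threshold with 1 sign throughout, the 3 lowest and 3 highest of each family, and the lowest and highest of each class with at least 3 members. From other lists, up to 4 genes past the threshold were named. The choice to name other members, sgl, UGP, Gss2, Mgstl, sni, Keap1, maf-S, tgo and Desat1 was made with their values known. The rule leaves out 6 P450 genes with a two-letter subfamily and 2 copies of Cyp12d1, and any P450 gene with a name of another form, such as phm. Protein identity and promoter motifs were not analysed here. Alternatives were dye, array set, scaling, centring, variance model, sign and replicate.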

Additional observations from a re-analysis of the deposited data

How the results depend on the processing

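Among 10 alternatives with moderated variances and no sign turned, scaling and centring included, 9 of the 18 called members passed in each that measured them (GstE6, GstO1, GstT4, Cyp304a1, Cyp301a1, Cyp6d5, Cyp6v1, Ugt317A1 and Ugt36E1). The other 9 lost the call in at least 1, GstT1 and GstZ1 only in that with scaled arrays. Scaling the arrays to the same spread left 4 positive members, 1 positive GST, 1 negative UGT and 707 genes, with a UGT median of -0.26. Taking the 4 arrays as independent samples gave 17 negative members, 5 negative GSTs, 6 negative and 2 positive UGTs and 2460 genes, as it counts each replicate as 2 samples. A dye term over arrays gave 5 negative UGTs. Arrays that carry the mutant in Cy3 gave, taken alone, 6 negative members, 1 positive P450 and 1 negative UGT, with medians of -0.21 for P450s and -0.097 for UGTs, while the other arrays gave -0.088 and -0.29. Over genes with values on all 4 arrays the medians were -0.046 for GSTs, -0.091 for P450s and -0.31 for UGTs, and the last pair also held without the 10% of genes that differ most between swaps.

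Without moderation of the variance each count was 0, for all genes, members and each family in both directions, with 461 genes and 8 members at an unadjusted p under 0.05. With 2 replicates that test has 1 degree of freedom. Turning the sign of the arrays with the mutant in Cy3 also gave 0 for each count (425 genes and 2 members at an unadjusted p under 0.05), with medians of 0.039 for P450s and -0.0021 for UGTs. The SD over genes fell from 0.36 to 0.13 by this turn, as the swapped arrays correlate positively. It reversed GstO3 (0.045), GstO2 (-0.063), GstO1 (-0.056), GstT4 (0.081), GstT1 (-0.091), GstZ1 (-0.036), Cyp304a1 (0.062), Cyp6d5 (0.072), Cyp6v1 (-0.021), Cyp4g1 (0.26), Cyp301a1 (0.039), Ugt317A1 (0.029) and Ugt37C1 (0.042).

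With 1 replicate left out no test remains, and the medians ranged from 0.00 to 0.10 for GSTs, from -0.13 to -0.10 for P450s and from -0.21 to -0.18 for UGTs. The replicate as a random block over arrays cost GstO2 and Ugt37C1 their calls (consensus correlation 0.64), centring cost GstE13, and the robust fit added GstS1. Apart from effects built into an alternative, the cause was not tested. Each array already pairs a mutant with a control sample, so the test of the ratios against 0 used that pairing, with 1 ratio per replicate. With 2 replicates a member's 95% interval had a median width of 0.31 to either side. The interval is not adjusted for the number of genes, and 7 members whose interval excludes 0 did not pass. Over all genes the smallest ratio called was 0.41 in size.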
